A study of Mus musculus with 18 samples.

Results

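The regions described here are distal stretches of chromatin that LPS opened in Il10-/- bone marrow-derived macrophages (BMDMs), that stayed low when IL-10 was given before LPS, and that stayed closer to the LPS level when (+)-JQ1 was given instead. They number 259 of the 157614 distal peaks, or 0.164%, and 5.76% of the 4500 distal peaks that LPS opened. Each was chosen from its mean CPM (the count of reads in the peak scaled by 1e6 over the reads counted in all peaks of the library) over the 3 libraries of a condition. A chosen peak had at least 2 CPM with LPS, at least 2 times the unstimulated level, at most 0.5 of the LPS level with LPS + IL-10 and more than 0.7 of the LPS level with LPS + (+)-JQ1. Because those comparisons chose the peaks, their sizes are given as a description and not as tests.

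Accessibility was measured by ATAC-seq, in which Tn5 transposase cuts accessible DNA and tags it for sequencing, in BMDMs grown from 3 male Il10-/- C57BL/6J mice aged 12 weeks. There were 6 conditions of 3 libraries each, numbered 1 to 3, and the labels do not say which mouse a library came from. The conditions were no treatment, 500 nM (+)-JQ1 alone and 10 ng/mL IL-10 alone, each ended at 16 hours, and 50 ng/mL LPS for the last 4 hours after 12 hours of (+)-JQ1, of IL-10 or of neither (vehicle, in the study's methods). All 18 libraries share the deletion of Il10, and no wild-type cells are included. The macrophages were matured in medium conditioned by L929 cells, a fibroblast line that secretes the growth factor M-CSF.

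LPS is a component of the bacterial cell wall that macrophages sense through the receptor TLR4, which activates NF-kappaB, AP-1 and interferon regulatory factors (IRFs), and these factors open enhancers distant from the genes they control. IL-10 is an anti-inflammatory cytokine that signals through its receptor, the kinases JAK1 and TYK2 and the transcription factor STAT3. (+)-JQ1 fills the pockets with which BET proteins bind acetylated histones, and so displaces these coactivators from chromatin.

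Library totals ran from 12020526 to 25908198 counts in peaks. Promoter peaks stood at all 7 macrophage markers examined, among them Csf1r, Itgam and Mertk, with 5.02 to 63.6 CPM. Of 7 T cell markers only Lck had a promoter peak, and Cd3e, Cd3g, Cd3d, Cd4 and Cd8a had none. Among 7 neutrophil and progenitor markers, 5 had a promoter peak and Ly6g and Ngp had none, and promoter peaks stood at 5 of 6 B cell, 3 of 4 dendritic cell and 2 of 4 fibroblast markers. Some of these were as high as macrophage promoters, with 21.2 to 36.3 CPM at Elane, 24.3 to 39.1 CPM at Zbtb46 and 18.8 to 27.8 CPM at Pdgfra, so a promoter peak alone did not tell these cell types apart. The summed CPM of the 5 neutrophil and progenitor promoters was 61.0 to 70.3 with LPS + IL-10 and 44.9 to 49.6 with LPS, so these groups did not overlap, and it was 54.8 to 59.7 with IL-10 alone and 41.8 to 48.1 with (+)-JQ1 alone. The sum over the 7 macrophage promoters did not overlap either, at 157 to 171 with LPS + IL-10 and 146 to 154 with LPS. Without LPS it was 164 to 169.6 with IL-10 alone, below the 183 to 185 with (+)-JQ1 alone. In the other lists LPS + IL-10 and LPS overlapped. The part of these markers in the differences between the groups was not tested. The library of LPS + (+)-JQ1 replicate 1, with 13619436 counts, stood apart from the other two of its condition at the chosen peaks, and 99 of the 259 peaks met the rule only with it. Values without it are given below.

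Reference sequences of chosen peaks are shown, from genome build mm9, as the middle 300 bases of 2 of the 4 peaks with the lowest ratio of LPS + IL-10 to LPS among members of at least 4 CPM with LPS, and as 30 bases around an IRF or kappaB match in 8 other peaks named in the text. Capitals mark the letters matched: IRF (GAAA, any 2 bases, GAAA), kappaB (by name), AP-1 (TGANTCA) and RUNX (TGTGGT), on either strand in the long windows, and the IRF or kappaB match alone in the short ones. Peak coordinates are printed as the authors' table holds them, and the sequence windows count from 1.
Il15 intron, chr8:84896761-84897060, plus strand: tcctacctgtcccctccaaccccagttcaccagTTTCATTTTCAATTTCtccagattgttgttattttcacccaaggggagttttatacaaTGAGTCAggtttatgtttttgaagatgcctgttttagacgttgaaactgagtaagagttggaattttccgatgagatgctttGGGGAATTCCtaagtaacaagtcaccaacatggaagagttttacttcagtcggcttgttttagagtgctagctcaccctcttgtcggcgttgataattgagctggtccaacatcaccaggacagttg
Mrpl39 intron, beside Mir155, chr16:84726100-84726399, plus strand: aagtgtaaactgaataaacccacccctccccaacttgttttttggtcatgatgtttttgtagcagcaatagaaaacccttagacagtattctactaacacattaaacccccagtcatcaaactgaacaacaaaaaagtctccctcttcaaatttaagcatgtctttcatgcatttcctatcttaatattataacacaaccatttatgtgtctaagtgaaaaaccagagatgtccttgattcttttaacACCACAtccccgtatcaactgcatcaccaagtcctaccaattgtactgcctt
upstream of Ripk2, IRF, chr4:16124013-16124042, plus strand: ctatttgaccTTTCTGTTTCtgtttgtttc
downstream of Gbp2, IRF, chr3:142301475-142301504, plus strand: acacatcttgGAAACAGAAActcagttaat
Pus10 intron, toward Rel, IRF, chr11:23627949-23627978, plus strand: aaacacagaaGAAACAGAAAgcaaaacaaa
upstream of Csf1, kappaB, chr3:107578925-107578954, plus strand: gagttttggtGGGATTTTCCttagcctagg
downstream of the Cxcl2 start, kappaB, chr5:91335074-91335103, plus strand: gctactagctGGAGTCTCCCttgtttttgt
far upstream of Il6, kappaB, chr5:30246966-30246995, plus strand: tagtgtaaaaGGGGATCTCCccttttcttc
near D10Jhu81e, kappaB, chr10:77597742-77597771, plus strand: acttacattaGGGGTTTCCCctaccccaac
Ralgapa2 intron, kappaB, chr2:146241966-146241995, plus strand: gaaaaagagaGGGGACTCCCcagctgtcac
The first of these, in an intron of Il15, held 2 overlapping IRF matches, an AP-1 match and a kappaB match within 300 bases. The peak with the lowest ratio, in an intron of Sik2, held no match to any of the 9 motifs searched in its middle 500 bases.

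The choice is shown by the plot of both ratios for every LPS-opened distal peak. At the limit on IL-10, the members just inside had ratios of 0.4998 and 0.4998 and the peaks just outside 0.5002 and 0.5015. At the limit on (+)-JQ1, the nearest members had 0.7014 and 0.7015 and the nearest others 0.6968 and 0.6965. At the limit on LPS over unstimulated cells, the values were 2.0074 and 2.0129 inside and 1.9999 and 1.9970 outside, and at that on the LPS level 2.0342 and 2.0461 CPM inside and 1.9742 and 1.9687 CPM outside. The limits cut through a continuous cloud: 88 members lay within 10% of the limit on IL-10 and 92 within 10% of that on (+)-JQ1, against 81 and 110 non-members that failed only there.

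**Figure D1:**
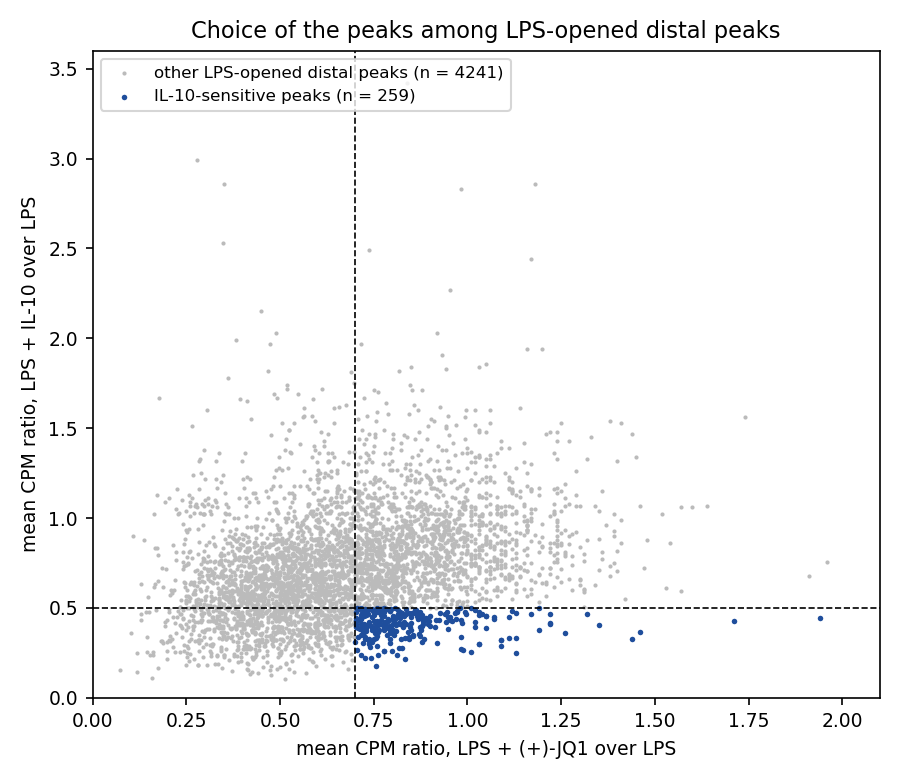
Ratio of mean CPM with LPS + IL-10 over LPS (vertical axis) against LPS + (+)-JQ1 over LPS (horizontal axis) for the 4500 LPS-opened distal peaks, with dashed lines at the limits of 0.5 and 0.7. The 259 chosen peaks are the blue points in the lower right corner, and no gap separates them from the grey points around them.

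Among the 259 peaks, LPS raised the mean level by a median of 2.85 times, between 2.01 and 11 times. The level left with LPS + IL-10 was a median 0.420 of the LPS level (range 0.176 to 0.50), and that left with LPS + (+)-JQ1 a median 0.804 (range 0.701 to 1.94). In 37 peaks the mean with LPS + (+)-JQ1 was above that with LPS, and in 11 without replicate 1 of LPS + (+)-JQ1. Of the gain in CPM from unstimulated cells to LPS, a median of 8.86% was left with LPS + IL-10, and in 72 peaks LPS + IL-10 was below the unstimulated mean. These values depend on the scaling, since the TMM factors of the unstimulated libraries (1.04 to 1.24) were above those of the LPS libraries (0.942 to 0.993). With TMM-scaled CPM, a scaling added after seeing the data, a median of 13.5% was left, 29 peaks were below the unstimulated mean, and the median ratio of LPS + IL-10 to unstimulated cells was 1.31 in place of 1.16.

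By library, the median CPM over the 259 peaks was 2.25, 1.96 and 1.76 in unstimulated cells, 5.98, 6.03 and 5.99 with LPS alone and 2.49, 2.25 and 2.36 with LPS + IL-10. The LPS libraries were thus close to each other and far above those with LPS + IL-10. With LPS + (+)-JQ1 the medians were 6.17, 4.30 and 4.40, of which the first reached the LPS level and the others did not. Without LPS, the medians were 1.44, 1.44 and 1.53 with (+)-JQ1 alone and 1.36, 1.45 and 1.42 with IL-10 alone. LPS + IL-10 was below LPS in all 3 same-numbered pairs at each of the 259 peaks, and at 257 every LPS + IL-10 library was below every LPS library, which held for 11.0% of all distal peaks. The limit on IL-10 was set on these same libraries, so this separation follows largely from the choice and nothing is read from it.

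**Figure D2:**
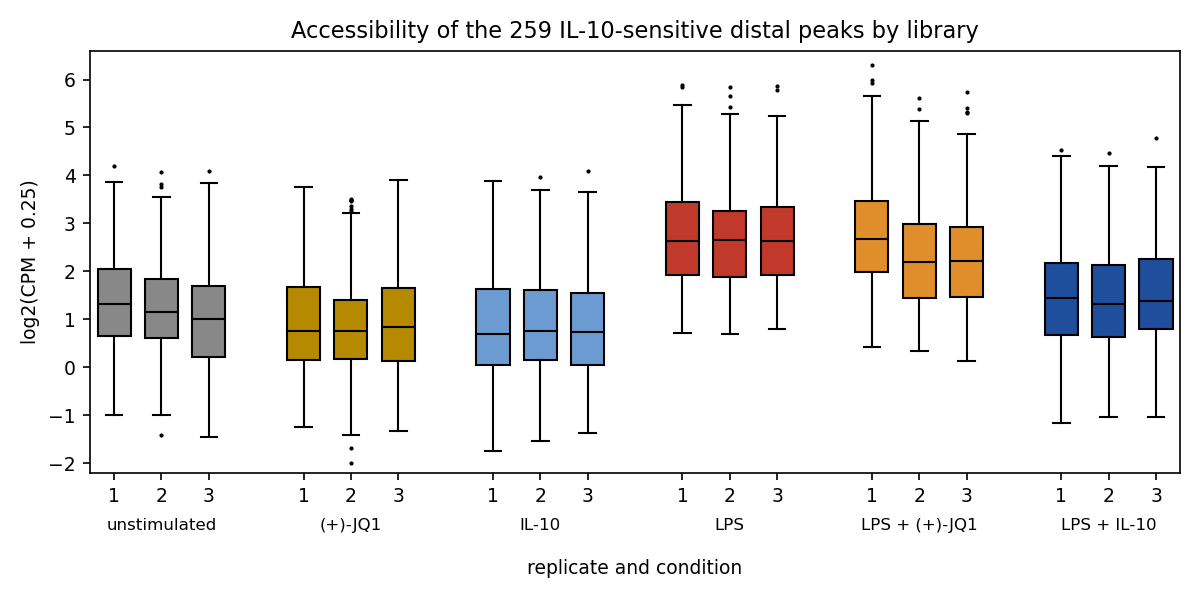
Accessibility of the 259 peaks, as log2(CPM + 0.25), in each of the 18 libraries (boxes, median and quartiles; whiskers, 1.5 times the interquartile range; points, peaks beyond). The LPS libraries sit highest with LPS + (+)-JQ1 replicate 1 (median 6.17 CPM), and the LPS + IL-10 libraries (2.25 to 2.49 CPM) lie near the unstimulated ones.

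LPS + (+)-JQ1 replicate 1 was the highest of its 3 libraries at 216 of the 259 peaks (83.4%), against 67.7% of all LPS-opened distal peaks. Its CPM was a median 1.41 times the mean of the other two at the chosen peaks, 1.24 times over all LPS-opened distal peaks and 0.988 times over all distal peaks. Without this library, 160 of the 259 still met the rule and 178 peaks met it in all, and the median ratio of LPS + (+)-JQ1 to LPS at the 259 peaks was 0.733. The 160 had a median ratio of LPS + IL-10 to LPS of 0.438. The members' LPS + IL-10 libraries showed no such split.

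The rule was also applied to 2 replicates at a time, and the ratios were read in the replicate it had not used. With replicate 1, 2 or 3 left out, 206, 267 and 282 peaks were chosen, and their median ratio of LPS + IL-10 to LPS in the unused replicate was 0.463, 0.397 and 0.439. Peaks chosen by the LPS limits alone had 0.759, 0.656 and 0.748, and peaks chosen as resistant to both treatments (both ratios to LPS above 0.7) had 0.980, 0.859 and 0.945. In the unused replicate, the ratio to LPS was below 1 at 203 of 206, 267 of 267 and 281 of 282 chosen peaks, and at 74.7%, 85.6% and 77.5% of the peaks chosen by the LPS limits alone. It was at most 0.5 at 59.2%, 72.7% and 65.6% of the chosen peaks, against 20.8%, 27.8% and 19.3% of those chosen by the LPS limits alone. The low level with IL-10 was therefore seen again in each replicate that had no part in the choice, although a share of the peaks rose above the limit.

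The weak sensitivity to (+)-JQ1 was seen again clearly only in replicate 1, which holds the LPS + (+)-JQ1 library that stood apart. The median ratio of LPS + (+)-JQ1 to LPS in the unused replicate was 0.968, 0.694 and 0.686, against 0.767, 0.619 and 0.651 for the peaks chosen by the LPS limits alone. In replicates 2 and 3 the median of the chosen peaks was thus under 0.7, and little above that for the LPS limits alone. In replicates 2 and 3, 48.3% and 48.9% of the chosen peaks exceeded 0.7, and in replicate 1 87.9% did, against 39.0%, 43.7% and 57.4% of the peaks chosen by the LPS limits alone. Of the peaks chosen as resistant to both, 69.1%, 77.9% and 91.4% did, in the same order. In each unused replicate the chosen peaks were thus more sensitive to (+)-JQ1 than those resistant to both. Both limits were met in the unused replicate by 105 of the 206, 82 of the 267 and 76 of the 282 chosen peaks.

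**Figure D3:**
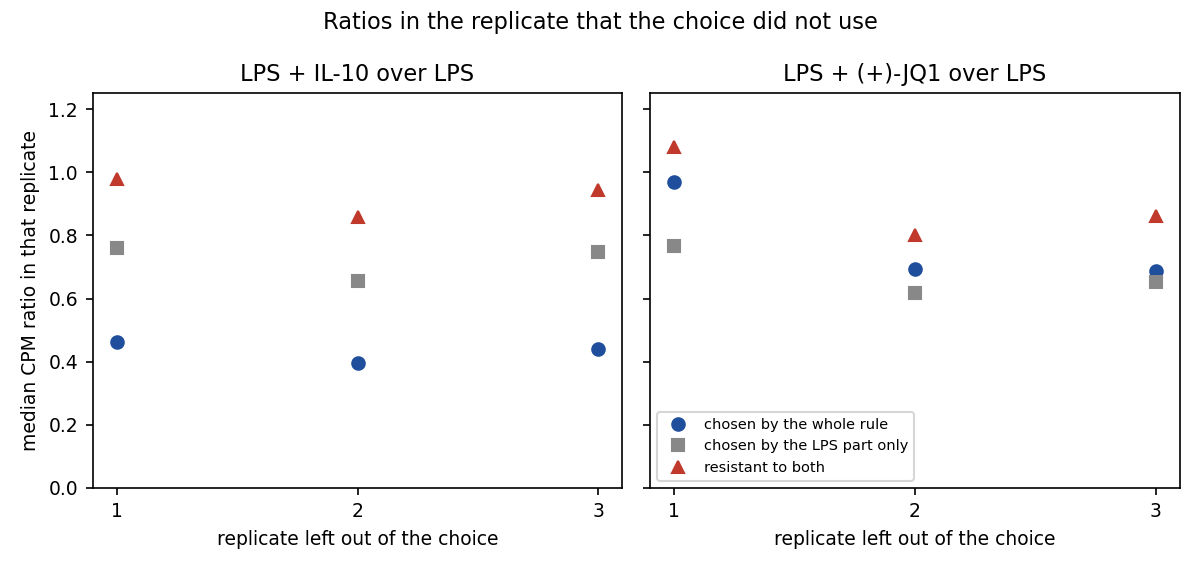
Median CPM ratio in the replicate left out of the choice, for LPS + IL-10 over LPS (left) and LPS + (+)-JQ1 over LPS (right), with points for peaks chosen by the whole rule, by its LPS limits alone and as resistant to both. For IL-10 the chosen peaks lie lowest in each replicate (0.397 to 0.463), and for (+)-JQ1 they lie at 0.968 in replicate 1 and near 0.69 in the others. Replicate 1 holds the LPS + (+)-JQ1 library that stood apart from the others of its condition.

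IL-10 alone and (+)-JQ1 alone are the pair of conditions that no limit used, and their comparison asks whether the chosen peaks also differ between the treatments before LPS. All 259 peaks passed the filter on low counts, which they had to, since the rule required reads with LPS. With calls made by edgeR (FDR below 0.05 over all peaks, log2 fold-change past 0.5 in size), 11 of the 259 (4.25%) were lower with IL-10 alone than with (+)-JQ1 alone and 1 (0.386%) was higher, while 0.936% of all distal peaks were lower and 1.51% higher. The median log2 fold-change was -0.07 at the chosen peaks and 0.02 at all distal peaks. Peaks sensitive to (+)-JQ1 but not IL-10 had the opposite split, with 0 of 362 lower, 43 higher (11.9%) and a median of 0.22, and peaks resistant to both had 28 of 1270 lower and 92 higher. The 447 peaks lowered by both treatments (both ratios to LPS at most 0.5) had the same median as the chosen peaks, -0.07, with 4 lower and 3 higher. With libraries scaled by total counts, 10 members were lower and 3 higher. Counted by non-overlapping CPM of the 3 libraries, 29 members were lower with IL-10 alone and 26 higher, against 6.33% and 14.1% of distal peaks. Without 1 replicate the counts were smaller: 8 were called lower without replicate 1, 4 without replicate 2 and 3 without replicate 3, and 7 of the 11 are among the 160 peaks that met the rule without the deviating library.

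The call with the lowest FDR among the 11 lay in an intron of Cerkl, which encodes a protein related to ceramide kinase. It had 4.95, 6.53 and 5.99 CPM with (+)-JQ1 alone and 2.97, 3.42 and 2.93 CPM with IL-10 alone, a difference of -0.98 ± 0.18 (edgeR, FDR = 1.7e-04), and it was chosen for naming after its values were seen. It was the only one of the 11 that stayed called under every alternative fit. Also among the 11 was a peak near D10Jhu81e, 34642 bases from that gene's start and the fourth highest of all members with LPS. It had 12.5, 10.9 and 9.60 CPM with (+)-JQ1 alone and 7.35, 6.08 and 8.15 CPM with IL-10 alone. The groups did not overlap, and the log2 fold-change was -0.68 ± 0.16 (SE, FDR = 0.00331). A peak in an intron of Ifit2, whose product and that of the neighbouring Ifit3 are induced by interferon and restrain viral RNA translation, had 8.34, 7.41 and 6.19 CPM with (+)-JQ1 alone and 4.28, 5.01 and 5.36 CPM with IL-10 alone. It was lower with IL-10 by -0.65 ± 0.17 (FDR = 0.0165). A peak in an exon of Herc6, an interferon-induced ligase of the ubiquitin-like protein ISG15, had the largest difference, -1.66 ± 0.49 (FDR = 0.0427), at levels under 1 CPM in all 6 libraries. The calls at D10Jhu81e, Ifit2 and Herc6 were lost with 1 library of each group left out: at D10Jhu81e the difference was -0.55 and not called without replicate 2, at Ifit2 -0.47 without replicate 1 and -0.62 without replicate 2, and at Herc6 -1.35 without replicate 1 and -1.38 without replicate 3.

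In an intron of Cdc42bpg, which encodes a kinase bound by Cdc42, the peak had 1.27, 1.82 and 1.58 CPM with (+)-JQ1 alone and 0.730, 0.723 and 0.687 CPM with IL-10 alone, a difference of -1.19 ± 0.30 (FDR = 0.0111). A peak 1198582 bases from Cited2, its nearest annotated start, differed by -1.07 ± 0.24 (FDR = 0.00256), and one upstream of Rps12-ps2, a ribosomal protein pseudogene by name, by -1.61 ± 0.44 (FDR = 0.0218) at levels near or under 1 CPM. The others of the 11 were nearest to Etv6, Rgs8, Alcam and Gypc, with differences of -0.71 to -1.01. The member higher with IL-10 alone lay in an intron of Igbp1, which encodes a regulator of protein phosphatase 2A. It had 5.60, 5.79 and 5.17 CPM with IL-10 alone and 3.62, 2.45 and 4.11 CPM with (+)-JQ1 alone, a difference of 0.62 ± 0.18 (FDR = 0.0423). With LPS + IL-10 this peak held 5.62, 5.32 and 5.35 CPM, the level already seen with IL-10 alone. Here too calls were lost, at Cdc42bpg without replicate 2 (-1.05) or 3 (-1.16), near Cited2 without replicate 3 (-1.01) and at Rps12-ps2 without replicate 1, 2 or 3 (-1.57, -1.52 and -1.73). Etv6 was lost without replicate 1 or 3 (-0.46 and -0.69), and Rgs8 (-1.15 and -0.69), Alcam (-0.73 and -0.89) and Gypc (-0.70 and -0.95) without replicate 2 or 3. The Igbp1 call was lost without replicate 1, 2 or 3 (0.43 to 0.81), with DESeq2's size factors (0.61) and with distal peaks alone (0.59).

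**Figure D4:**
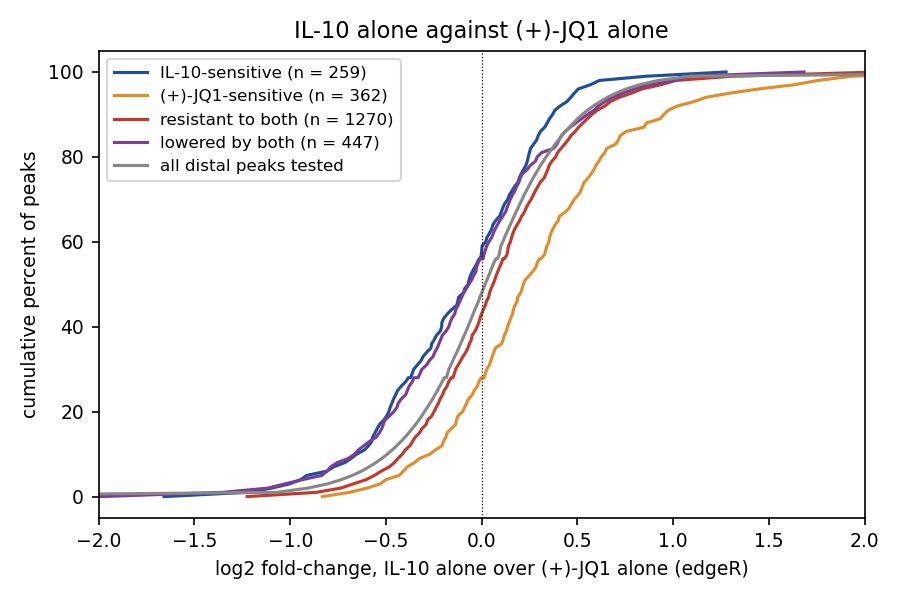
Cumulative percent of peaks by their log2 fold-change of IL-10 alone over (+)-JQ1 alone (edgeR), for the 259 chosen peaks, the 362 sensitive to (+)-JQ1, the 1270 resistant to both, the 447 lowered by both and all distal peaks tested. The chosen peaks and those lowered by both run together on the left (median -0.07 in each), and the (+)-JQ1-sensitive peaks lie rightmost (median 0.22).

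Against unstimulated cells, whose libraries the rule did use, IL-10 alone lowered 21 of the 259 peaks and raised 5, where 3.85% of distal peaks were lower and 4.33% higher. The median log2 fold-change was -0.18. (+)-JQ1 alone lowered 14 and raised 10, where 3.39% of distal peaks were lower and 4.34% higher, with a median of -0.10. In both comparisons, 6 peaks were called lower. Of the 447 peaks lowered by both treatments, IL-10 alone lowered 59 (13.2%, median -0.46) and (+)-JQ1 alone 42 (9.40%, median -0.38). The lowering was thus not particular to the members. Of the 1270 peaks resistant to both, IL-10 alone lowered 7 and raised 331 (26.1%), and (+)-JQ1 alone lowered 14 and raised 242 (19.1%). These comparisons share the unstimulated libraries and depend on scaling: total counts in place of TMM moved the median of all peaks by -0.21 for IL-10 and -0.28 for (+)-JQ1, and then 43 members were lower and 1 higher with IL-10, and 45 lower and 2 higher with (+)-JQ1. Leaving out a replicate left 4 to 17 members lower with IL-10 and 3 to 12 lower with (+)-JQ1.

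The members lower with IL-10 alone included peaks at Ripk2, which encodes the kinase that relays signals of the NOD receptors, and at Rel, Gbp2 and Gbp5. The 5 called higher were nearest to Gbp1, Igbp1, Nsmaf, Irak1bp1 and Map3k5, so that members of the Gbp cluster went either way. The Gbp1 peak, named after its values were seen, had 6.82, 9.30 and 9.55 CPM in unstimulated cells and 11.2, 12.3 and 12.4 CPM with IL-10 alone (0.67 ± 0.15, edgeR, FDR = 0.00187). At Ripk2, the peak inside the gene 39182 bases from its start had 3.41, 2.59 and 1.54 CPM in unstimulated cells and 1.07, 0.675 and 1.05 CPM with IL-10 alone. The difference was -1.17 ± 0.30 (FDR = 0.00490). The widest member, 9750 bases over an intron of Rel, had 14.4, 13.2 and 12.9 CPM in unstimulated cells and 7.40, 8.0 and 8.65 CPM with IL-10 alone, lower by -0.54 ± 0.15 (FDR = 0.0124). The same peak was as low with (+)-JQ1 alone, at 8.45, 7.85 and 8.51 CPM.

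In the comparisons that chose the peaks, all 259 were called, higher with LPS and lower with LPS + IL-10, as the limits fixed, and nothing is read from the 11.1% and 4.65% of distal peaks called so. Between LPS + (+)-JQ1 and LPS, 3 members were called higher and 2 lower, where 1.74% and 3.55% of distal peaks were, and with DESeq2's size factors 3 and 1. Without replicate 1, which holds the deviating library, 27 members were called lower and 1 higher. Tnfaip2, which encodes a protein induced by TNF, had the member called higher with the highest level. It had 42.4, 43.0 and 37.7 CPM with LPS alone and 78.2, 49.1 and 52.9 CPM with LPS + (+)-JQ1, so that all 3 exceeded the LPS libraries, and 15.3, 16.1 and 13.4 CPM with LPS + IL-10.

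LPS still raised part of the peaks in cells that had been given IL-10. Compared with IL-10 alone, LPS + IL-10 was higher at 111 of the 259 peaks (42.9%), lower at 1 and not called at 147, where 9.47% of distal peaks were called higher. The share called higher was 74.9% of all LPS-opened distal peaks, 87.9% of those resistant to both and 55.3% of those lowered by both. The median log2 fold-change at the members was 0.61. Compared with (+)-JQ1 alone, LPS + (+)-JQ1 was higher at 241 members (93.1%), with a median of 1.70, where 5.91% of distal peaks were higher. Here the share was 75.6% of all LPS-opened distal peaks, 91.6% of those resistant to both and 49.7% of those lowered by both. The LPS + IL-10 and LPS + (+)-JQ1 libraries were limited by the rule, so that these counts follow in part from the choice. The largest difference between LPS + IL-10 and IL-10 alone lay 7918 bases upstream of Gbp7, where the libraries had 2.19, 1.54 and 2.46 CPM and 0.146, 0.482 and 0.137 CPM (2.96 ± 0.39, FDR = 1.4e-09).

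Genes of the NF-kappaB family stood among the nearest to the members. Of the 259 peaks, 106 lay in 33 runs, in which each member was within 25 kb of the next, and 10 runs held 3 or more. The longest run held 11 members over 88611 bases of Nfkb1 and its downstream flank (chr3:135241477-135330088), where 21 of 25 distal peaks were opened by LPS. Nfkb1 encodes p105 and its product p50, a DNA-binding subunit of NF-kappaB. The summed CPM of the 11 peaks was 47.5, 44.9 and 46.5 in unstimulated cells, 143, 144 and 138 with LPS, 57.5, 51.1 and 49.9 with LPS + IL-10 and 143, 89.8 and 102 with LPS + (+)-JQ1. LPS + IL-10 thus stood just above unstimulated cells in every replicate, and LPS + (+)-JQ1 replicate 1 was at the LPS level.

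This run holds the member with the highest level of all, 4518 bases wide, beyond the gene's end and 27498 bases from its nearest annotated start. It had 18.1, 16.6 and 16.7 CPM in unstimulated cells, 58.7, 57.6 and 57.8 CPM with LPS and 21.0, 18 and 17.9 CPM with LPS + IL-10. With LPS + (+)-JQ1 it had 63.3, 35.0 and 40.0 CPM. Only the first of these reached the LPS libraries, and without it the ratio to LPS is 0.646, under the limit of 0.7. Without that library 4 of the 11 members met the rule, with ratios to LPS of 0.632 to 0.789 over the 11. The 11 members kept 0.327 to 0.432 of the LPS level with IL-10.

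The next run held 10 members in 28047 bases of Rel and Pus10 (chr11:23624876-23652923), where 10 of the 11 distal peaks were members. Rel encodes c-Rel, another DNA-binding subunit of NF-kappaB, and Pus10 a pseudouridine synthase. Summed over the 10 peaks, the CPM was 43.4, 41.9 and 37.5 in unstimulated cells, 119, 139 and 123 with LPS alone and 51.9, 49.2 and 48.9 with LPS + IL-10. With LPS + (+)-JQ1 it was 155, 104 and 121, around the LPS values, and the ratios of the members were 0.873 to 1.22. Without replicate 1 of LPS + (+)-JQ1 they were 0.760 to 1.08, and all 10 still met the rule. With IL-10, the members had 0.274 to 0.467 of the LPS level, the lowest at a peak in an intron of Pus10 with 9.18, 8.92 and 8.42 CPM with LPS and 2.49, 2.13 and 2.65 CPM with LPS + IL-10, whose IRF match is printed above.

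**Figure D5:**
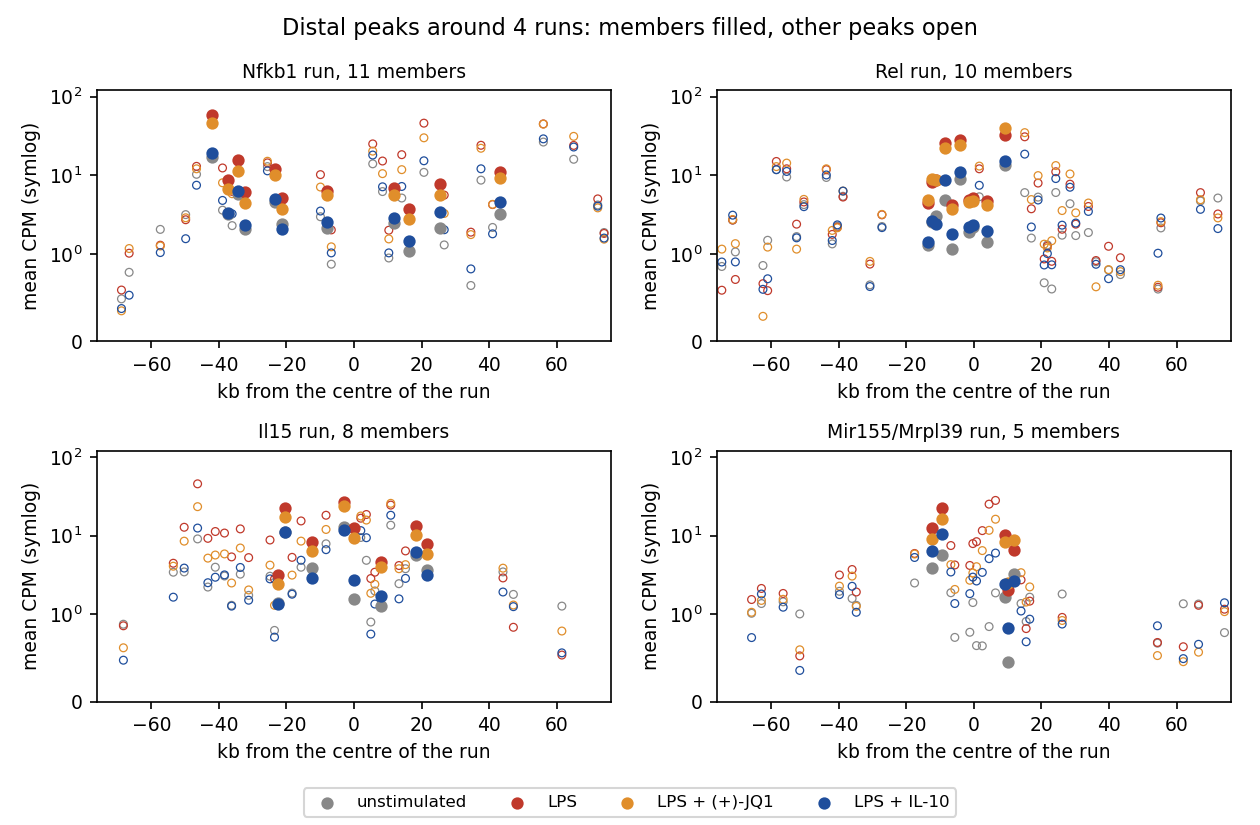
Mean CPM (symmetric log axis) of every distal peak within 75 kb of the centre of 4 runs, in unstimulated cells and with LPS, LPS + (+)-JQ1 and LPS + IL-10, with members filled and other distal peaks open. At the members, LPS + IL-10 lies with or near the unstimulated values and LPS + (+)-JQ1 at 0.712 to 1.35 of the LPS mean. Open points of both kinds of response lie between them. Without LPS + (+)-JQ1 replicate 1, its summed CPM over the members is 0.675 of that with LPS at Nfkb1, 0.888 at Rel, 0.764 at Il15 and 0.633 at Mir155/Mrpl39.

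Il15, which encodes a cytokine that sustains natural killer and memory T cells, held 8 members over 45561 bases (chr8:84874000-84919561). Their summed CPM was 43.1, 40.5 and 40.9 in unstimulated cells, 89.9, 102 and 105 with LPS, 41.2, 39.1 and 42.4 with LPS + IL-10 and 86.6, 73.0 and 78.1 with LPS + (+)-JQ1. The LPS + IL-10 values overlapped the unstimulated ones. The member of this run with the lowest ratio, in an intron 30211 bases from the start (sequence above), had 0.749, 1.83 and 2.16 CPM in unstimulated cells, 13.0, 11.7 and 12.6 CPM with LPS, and 2.83, 2.42 and 2.99 CPM with LPS + IL-10. With LPS + (+)-JQ1 it had 12.0, 8.09 and 7.64 CPM. Without replicate 1 of LPS + (+)-JQ1, 6 of the 8 members met the rule.

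Around Ripk2, 6 members over 21925 bases (chr4:16039505-16061430) made up all of the LPS-opened distal peaks in the span. Further members lay upstream of the gene, the nearer of them at 33141 bases. The summed CPM of the 6 was 26.2, 18.8 and 17 in unstimulated cells, 55.7, 58.9 and 57.9 with LPS, 20.8, 17.9 and 19.2 with LPS + IL-10 and 60.9, 40.5 and 43.3 with LPS + (+)-JQ1. Without the first LPS + (+)-JQ1 library, 2 of the 6 met the rule. The nearer upstream peak had 3 IRF matches, a mean with LPS + (+)-JQ1 of 1.01 times the LPS mean (0.907 without that library), and 0.253 of it with LPS + IL-10. Its LPS libraries had 3.42, 5.05 and 4.86 CPM and its LPS + IL-10 libraries 1.34, 1.30 and 0.723 CPM.

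A pair of runs lay in the cluster of guanylate-binding proteins on chromosome 3, interferon-induced GTPases that act on vacuoles of intracellular microbes. At Gbp2, all 6 distal peaks of a span of 12819 bases (chr3:142289075-142301894) were members, with a summed CPM of 17.3, 15.9 and 12.4 in unstimulated cells, 56.6, 65.2 and 64.0 with LPS alone and 28.6, 25.3 and 26.4 with LPS + IL-10. These peaks kept more of the LPS level with IL-10 (0.399 to 0.478) than those at Ripk2 (0.240 to 0.428), and all 3 libraries stayed above the unstimulated ones. With LPS + (+)-JQ1 the sum was 55.7, 44.0 and 52.0, and all 6 met the rule without the first library. At Gbp5 and toward Gbp7, 4 members (chr3:142167130-142185800) had sums of 31.1, 40.6 and 34.3 with LPS, 16.1, 14.3 and 14.0 with LPS + IL-10 and 38.3, 19.9 and 21.0 with LPS + (+)-JQ1. Only the first LPS + (+)-JQ1 library reached the LPS level. Without it the sum was 0.578 of that with LPS, and 1 of the 4 members met the rule.

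Mir155, the gene of miR-155, a microRNA induced by TLR signals, lay inside a run of 5 members over 25993 bases (chr16:84704108-84730101), whose nearest protein-coding gene was Mrpl39, of the mitochondrial ribosome. All 13 distal peaks of the span were opened by LPS. The summed CPM of the 5 was 17.1, 16.1 and 11.4 in unstimulated cells, 52.0, 52.1 and 58.5 with LPS, 25.0, 19.3 and 23.6 with LPS + IL-10 and 66.7, 36.2 and 32.5 with LPS + (+)-JQ1. Replicate 1 with LPS + (+)-JQ1 was above every LPS library and the other two were below them, and without it 2 of the 5 met the rule. Further runs lay at Clic4 (4 members, 3 without that library), Il7 (3 and 0) and Cd83 (3 and 2), and those at Clic4 and Cd83 overlapped the gene.

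Peaks with the lowest level left by IL-10 were not those with the highest level in LPS. Among members with at least 4 CPM with LPS, the lowest ratio of LPS + IL-10 to LPS was 0.215, in an intron of Sik2, which encodes a salt-inducible kinase. This peak had 1.33, 1.27 and 0.910 CPM in unstimulated cells, 4.89, 5.44 and 4.15 CPM with LPS and 1.09, 1.01 and 1.01 CPM with LPS + IL-10. The intronic Il15 peak (0.221) and the intronic Mrpl39 peak (0.238) were also among the lowest 4. Of the rest of the lowest 10, 6 lay at Ripk2 (3 peaks), Inpp4b, Ralgapa2 and Rel, with ratios up to 0.275.

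Of the 8 members with the highest level in LPS, those not in the runs at Nfkb1 and Rel lay at Tyk2, Tnfaip2, D10Jhu81e, Ifit2 and Clic4. Tyk2 encodes a kinase of the IL-10 and interferon receptors, and its peak, 9258 bases upstream, had 9.57, 11.4 and 12.9 CPM in unstimulated cells, 56.8, 50.4 and 54.9 CPM with LPS and 23.0, 21.8 and 27.2 CPM with LPS + IL-10. It stayed above unstimulated cells in each replicate and kept 29.7% of the LPS gain in CPM. The Ifit2 peak kept the most of the gain of any member, 37.0%, with 32.1, 32.0 and 36.8 CPM with LPS and 17.4, 14.3 and 17.1 CPM with LPS + IL-10. Across the members, 227 kept under 25% of the gain and 32 kept more.

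The largest rise with LPS was 11 times, at a peak 92748 bases upstream of Il6, the gene of the inflammatory cytokine IL-6. It had 0.666, 0.569 and 0.625 CPM in unstimulated cells, 6.97, 6.32 and 7.12 CPM with LPS, 3.38, 1.77 and 3.04 CPM with LPS + IL-10 and 8.0, 3.12 and 3.63 CPM with LPS + (+)-JQ1. The Gbp2 member 17690 bases from the gene's start followed with 9.53 times, and had 17.7, 16.8 and 18.6 CPM with LPS and 8.90, 5.86 and 6.41 CPM with LPS + IL-10. Without the first LPS + (+)-JQ1 library the Il6 peak had a ratio of 0.496 to LPS and did not meet the rule. A peak in an intron of Alcam, which encodes a cell adhesion molecule, rose 6.23 times and had 16.5, 14.5 and 14.1 CPM with LPS and 6.02, 4.97 and 5.59 CPM with LPS + IL-10.

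Genes of 10 lists were examined for a member within 25 kb of a transcription start site. Of 161 listed genes in the annotation, 13 had one (8.07%), against 132 of 22232 protein-coding genes (0.594%). The lists were drawn up with earlier results of these data known, and all members were opened by LPS. No such share was computed for other LPS-opened peaks, so the excess cannot be read as particular to the members. Among 20 inflammatory cytokines these were Csf1 and Il15, among 21 chemokines Cxcl1 and Cxcl2, among 20 genes of the IL-10 receptor and STAT3 response Tyk2, and among 21 genes of the type I interferon response Gbp2, Gbp5, Ifit2 and Ifit3. Nfkb1 and Rel were 2 of 12 NF-kappaB subunits and inhibitors, and Cd69 and Icam1 were 2 of 18 inflammatory enzymes and surface proteins. No gene of the lists of IRFs, AP-1 factors, antigen presentation or macrophage lineage had a member within this distance. Within 100 kb, 26 listed genes had one, among them Il6, Ccl17, Ccl22, Isg15, Irf1 and Nfkbia, against 462 of the 22232 protein-coding genes. Among the 160 peaks that met the rule without LPS + (+)-JQ1 replicate 1, 11 listed genes had a member within 25 kb, and Cxcl1 and Cxcl2 did not.

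The 2 members upstream of Csf1, the gene of M-CSF, differed in their response to (+)-JQ1. The nearer was among the 2 members called lower with LPS + (+)-JQ1 than with LPS (-0.50 ± 0.16, edgeR, FDR = 0.0406), a call lost with DESeq2. The farther was not called (0.06 ± 0.13, FDR = 0.882). The nearer, 15571 bases from the start, had 19.6, 18 and 17.6 CPM with LPS alone, 19.5, 10.2 and 9.84 CPM with LPS + (+)-JQ1 and 9.10, 7.69 and 7.66 CPM with LPS + IL-10. The farther, 17806 bases from the start, had 23.6, 20 and 22.9 CPM with LPS alone, 27.2, 21.8 and 20.1 CPM with LPS + (+)-JQ1 and 10.1, 10.9 and 9.83 CPM with LPS + IL-10. All 3 LPS + (+)-JQ1 libraries were near the LPS level at the farther peak, and replicate 1 alone at the nearer, which without it had a ratio of 0.544 to LPS, and this difference between the peaks was not tested. Within 25 kb of both Cxcl1 and Cxcl2, which encode chemokines that attract neutrophils, a member 2324 bases from the Cxcl2 start had 12.6, 17 and 16.0 CPM with LPS alone, 18.1, 8.14 and 6.83 CPM with LPS + (+)-JQ1 and 5.32, 5.15 and 4.96 CPM with LPS + IL-10.

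At Cd69, which encodes an early activation antigen of leukocytes, an intronic member 4708 bases wide had 12.1, 12.7 and 17.1 CPM with LPS alone, 14.1, 12.4 and 10.3 CPM with LPS + (+)-JQ1 and 4.33, 4.32 and 4.43 CPM with LPS + IL-10, against 6.66, 3.67 and 2.79 CPM in unstimulated cells. The 3 LPS + IL-10 libraries were almost equal. At Icam1, the adhesion receptor through which leukocytes bind endothelium, an intronic member had 6.84, 6.81 and 6.94 CPM with LPS alone, 10.8, 5.74 and 6.33 CPM with LPS + (+)-JQ1 and 2.49, 3.67 and 3.13 CPM with LPS + IL-10.

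Members lay somewhat farther from genes than distal peaks in general, as did other LPS-opened peaks. Their median distance to the nearest start was 25797 bases, against 19425 for all distal peaks, and 61 (23.6%) lay within 10 kb, against 32.0%. The median was 28070.5 bases for the peaks sensitive to (+)-JQ1, 22003 for those lowered by both and 22827 for the 160 members that met the rule without the deviating library. By midpoint, 117 were intronic, 127 intergenic and 15 exonic. The median width of 1175 bases exceeded the 906 of all distal peaks and was below the 1425 of the peaks resistant to both treatments.

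Promoters of the nearest genes did not enter the rule, although their counts come from the same libraries. These promoters and the other distal peaks nearby were examined after the data had been seen. Of 263 promoter peaks at those genes, 60 were lower with LPS + IL-10 than with LPS (22.8%), where 3.94% of all promoter peaks were, and 7 were higher. Without replicate 2, 32 were lower. Of the 263, 98 were higher with LPS than in unstimulated cells (37.3%). Promoters near other LPS-opened peaks were not compared. The share lower with LPS + IL-10 therefore cannot be read as particular to genes near the members. At Il6 the promoter had 12.4 ± 1.49 CPM in unstimulated cells, 35.9 ± 4.67 with LPS, 17.1 ± 0.655 with LPS + IL-10 and 25.7 ± 2.61 with LPS + (+)-JQ1 (mean ± SD, n = 3), and it fell with IL-10 by a log2 fold-change of -1.13 ± 0.14 (edgeR, FDR = 6.1e-10). At Cdkn1a, the gene of the cell cycle inhibitor p21, the promoter fell with IL-10 by -1.18 ± 0.15 (FDR = 3.4e-09) while its mean with LPS + (+)-JQ1, 23.0 ± 5.62 CPM, was above the 19.3 ± 2.04 of LPS (19.8 CPM without replicate 1). The promoter peaks of Cxcl2 (-0.96 ± 0.14, FDR = 8.1e-08), Cd69 (-0.78 ± 0.14, FDR = 8.9e-06), Ripk2 (-0.61 ± 0.14, FDR = 8.4e-04) and Rel (-0.53 ± 0.14, FDR = 0.00529) also fell with IL-10.

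Promoters of Rel and Ripk2 were open before LPS. At Rel, the promoter had 66.5 ± 10.0 CPM in unstimulated cells, 92.2 ± 7.58 with LPS alone and 66.9 ± 4.38 with LPS + IL-10, and at Ripk2 72.5 ± 8.71, 104 ± 8.48 and 71.0 ± 8.30. In both, the mean with LPS + IL-10 was within 1 SD of the unstimulated mean. Other distal peaks within 25 kb of a member moved the same way in part: of 1699, 455 were lower with LPS + IL-10 than with LPS (26.8%), 283 without replicate 2, and 580 were higher with LPS than in unstimulated cells (34.1%). With LPS + (+)-JQ1, 146 of them were lower than with LPS (8.59%), and 161 without replicate 1. Over all distal peaks, the shares called were 4.65%, 11.1% and 3.55%. Distal peaks near other LPS-opened peaks were not compared, so these shares cannot be read as particular to the members either.

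Sequence motifs were counted in the middle 500 bases of each peak, on both strands. The IRF motif was found in 17.8% of the members, 7.44% of all distal peaks, 15.4% of the LPS-opened ones, 13.4% of those resistant to both, 8.01% of those sensitive to (+)-JQ1 and 19.5% of those lowered by both. For the kappaB motif these shares were, in the same order, 16.2%, 5.35%, 11.4%, 13.5%, 5.80% and 11.9%. AP-1 was found in 26.3%, 19.3%, 26.2%, 31.5%, 20.2% and 19.5%. IRF and kappaB were thus at over 2 times their share of all distal peaks. Of the members, 15 held 2 or more IRF matches, with up to 25 in 1 window, nearest to Diras2. Whether such dense matches lie in repeated sequence was not tested. IRF was as frequent in the peaks lowered by both, and kappaB was at 13.5% of those resistant to both. In the 160 members that met the rule without the deviating library, the shares of IRF, kappaB and AP-1 were 16.9%, 13.1% and 27.5%. In whole peaks, which differ in width, IRF was found in 33.2% of members and 32.7% of all LPS-opened peaks, and kappaB in 25.9% and 24.2%. No test was made of these shares, which are a description of sequence and not of binding, and overlapping matches of one palindromic kappaB site were counted as 1 peak.

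The STAT motif GAS (TTCNNNGAA) stood at 15.8% of the members and 14.7% of all distal peaks, C/EBP (TTGCNNAA) at 22.4% and 20.5%, RUNX at 34.4% and 37.1%, PU.1 (GAGGAAGT) at 4.63% and 6.98%, and the CRE (TGACGTCA) at 0.386% and 0.410%. CTCF (by name) was found in 0 members and in 2.32% of all distal peaks. In all, 5 members held both IRF and kappaB, 83 held at least 1 of them and 54 held none of the 9 motifs. The median GC content of the same windows was 43.4% in members, 46.2% in all distal peaks and 44.2% in the peaks resistant to both.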

How the data were processed

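Accessibility was measured by ATAC-seq in 18 libraries, 3 for each of 6 conditions. Per the labels and the study's methods, the authors processed reads with PEPATAC 0.9.0, aligned them to mm9 with Bowtie2, called peaks with MACS2 and annotated them with ChIPseeker, and peaks from 1000 bases upstream to 100 bases downstream of a start site were treated as promoter peaks. The deposited values were raw read counts per peak, over 194284 peaks, of which 36670 were promoter and 157614 distal. A further 6 columns matched no described sample and were not used. The members and lists were chosen with earlier results of these data known. CPM was computed here as the count over the library's total in all peaks.

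Differences were tested over all peaks with edgeR 4.0.16 in R 4.3.3, by its quasi-likelihood test with TMM scaling, filterByExpr and all 6 groups in the fit without a block, with Benjamini-Hochberg adjustment. Calls needed an FDR below 0.05 and a log2 fold-change past 0.5 in size. Standard errors are those of the log2 fold-change. Of 200 peaks changed by 1.5 on the log2 scale in simulated data for IL-10 alone against (+)-JQ1 alone, over 147138 peaks, edgeR recovered 89.5% with 7 false calls, and DESeq2 1.42.0 recovered 87.5%. The changed peaks were drawn only from those above a floor on the expected count. The change of 1.5 was also larger than most differences called at the members. These rates therefore do not hold for weaker peaks or smaller changes. Library totals of 12020526 to 25908198 limit the precision at weak peaks, and SDs and p-values cover the spread over 3 libraries a group.

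The sources used here give 3 mice and numbered replicates but do not tie a number to a mouse. Lane and number were linked: replicate 1 was on lane 5, replicate 3 on lane 6 and replicate 2 on lane 5 without LPS and lane 6 with it. Nearest genes were protein-coding genes of GENCODE vM1 on mm9, and motifs were searched in the middle 500 bases on both strands. The peaks named are those with the lowest ratio of LPS + IL-10 to LPS (10) and the largest rise with LPS (6), both among members of at least 4 CPM with LPS, those with the highest LPS level (8), those within 25 kb of a listed gene (up to 3 a list), those with the largest calls between IL-10 alone and (+)-JQ1 alone (up to 4 in each direction), and those at the limits. Of the peaks with the lowest ratio, 1 is not reported here. Runs, promoters and further peaks were chosen after their values were seen. Alternatives were another scaling, filter, tool, set of samples, lane or replicate term, window and left-out library.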

Additional observations from a re-analysis of the deposited data

How the results depend on the processing

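With DESeq2's size factors in the rule 389 peaks were chosen, with the other ways of choosing 178 to 377, and leaving out a replicate gave 206 to 282. 65 of the 259 (25.1%) met the rule every time. For IL-10 alone against (+)-JQ1 alone, the 1 peak called higher became 0 with DESeq2's size factors in edgeR, 3 with total counts, 2 with at least 10 counts in every library, 2 with the 2 groups alone, 0 with distal peaks alone and 0 to 1 without a replicate. The 11 called lower became 3 to 8 without a replicate and 7 among peaks meeting the rule without LPS + (+)-JQ1 replicate 1, an alternative chosen after seeing the data. For IL-10 alone against unstimulated cells, the 5 higher became 1 with total counts, 3 with at least 10 counts, 3 with the 2 groups alone and 1 to 3 without a replicate, and the 21 lower became 43 with total counts and 4 to 17 without a replicate. For (+)-JQ1 alone, the 10 higher became 2, 6 and 5 under the same settings and 1 to 6 without a replicate, and the 14 lower became 9 with DESeq2, 45 with total counts, 8 with the 2 groups alone, 7 with distal peaks alone and 3 to 12 without a replicate. For LPS + (+)-JQ1 against LPS, the 3 higher became 1 to 2 without a replicate, and the 2 lower became 0 with DESeq2, 1 with its size factors, 10 with at least 10 counts, 4 with lane as a covariate, 0 with distal peaks alone and 0 to 27 without a replicate. LPS + IL-10 was above IL-10 alone at 81 to 86 of the 259 and LPS + (+)-JQ1 above (+)-JQ1 alone at 206 to 229 without a replicate. The 60 promoter peaks lower with LPS + IL-10 became 32 to 51, and the 455 other distal peaks 283 to 342, also comparisons added after seeing the data. Libraries of different groups share only a number: deviations from the group means correlated by a mean of 0.00573 over 45 same-numbered pairs, and 9 of 18 libraries correlated best with their own number. With the replicate block, 11 peaks were lower with IL-10 alone than (+)-JQ1 alone and 3 lower with LPS + (+)-JQ1 than LPS, and no count moved by over 1.5 times. In the middle 200 bases and in the whole peak, AP-1 was found in 14.7% and 47.1% of members, IRF in 7.34% and 33.2% and kappaB in 8.49% and 25.9%, windows of fewer or more bases (whole peaks resistant to both: 60.7%, 31.9% and 27.8%). Within 100 kb, 26 of the 161 listed genes had a member, and 462 of the 22232 protein-coding genes. No result changed direction past its threshold. Where no reason is given, the cause was not tested. Depth limits the weak peaks: 184 of the 259 had at least 10 counts in every library.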
